A study of Bos taurus with 15 samples.

Results

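The 10 genes described here, FOS, FOSB, JUN, JUNB, JUND, ATF3, EGR1, NR4A1, IER2 and MYC, belong to the immediate early genes, whose transcripts appear soon after a cell is stimulated. They were chosen by name as a functional group, and 11 probes of the array named them, 1 for each gene and 2 for FOSB. All 10 were among the 13014 genes tested. The FOS probe was named through its transcript accession (gene number 280795), the JUN and EGR1 probes through their symbols, 1 FOSB probe through its description as an expressed sequence tag, and the other 7 probes through their gene numbers.

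Testis was taken at the slaughterhouse from 15 cattle, and total RNA of each animal was hybridised to its own single-colour Agilent oligonucleotide array. The prednisolone group held 8 animals given prednisolone, a synthetic glucocorticoid, in oral doses of 30 mg per animal each day over 35 days. The control group held 7 untreated animals. Strain and age are not given in the sources used here, and although the series speaks of cows, the labelled tissue is testis. Each level below is the log2 processed signal minus the log2 of the 75th percentile of its own array, so a level of 0 equals that percentile and a difference of 1 is a 2-fold change. Levels of different probes are not comparable with each other.

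Immediate early genes are switched on without new protein synthesis, because kinases activate transcription factors already present in the cell, such as SRF with ELK1, and CREB. FOS and JUN proteins pair into AP-1, a dimer that binds DNA at many promoters and enhancers, and the glucocorticoid receptor is known to restrain AP-1 by direct protein contact. In the testis several of these genes respond to the pituitary hormones that act on Leydig and Sertoli cells.

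The 14 arrays other than that of prednisolone 30 each had 78.3% to 87.3% of probes above background by the scanner's stricter flag (called well above background), and their processed signal had its 75th percentile between 1220 and 2780. For prednisolone 30 these values were 22.2% and 49.8. Its scanner file also did not match its own column of the authors' deposited table, with a gene-centred correlation of 0.0057 against at least 0.951 on the other arrays. Control 17 differed from the other controls in marker genes given beside FOS, so results are given with and without these 2 animals. Markers of the tissue were measured: 10 of 11 round spermatid and sperm markers, 6 of 8 spermatocyte markers, 10 of 10 Sertoli markers and 6 of 6 Leydig markers passed the filter on dim probes, while 0 of 7 epididymis markers did, 2 of which had a probe.

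Prednisolone and control testis did not differ past the threshold of 0.05 in any of the 10 genes. Their adjusted p-values (limma, Benjamini-Hochberg over all tested probes) lay between 0.885 and 0.960, and over all genes 0.0% passed. At an unadjusted p under 0.05 the count among the 10 was 0, against 2.51% of all genes. It was again 0 without prednisolone 30, against 4.13% of all genes, and 0 without prednisolone 30 and control 17, against 4.99%. In 7 of the 10 genes the mean was higher in prednisolone testis, and the median difference was 0.13, beside 50.7% of all genes higher and a median of 0.0055. The 2 groups overlapped for all 10 genes, and 0.0461% of all genes had groups that did not overlap. FOS, ATF3, FOSB, MYC and EGR1 ranged widely between animals of the same group, while JUN and NR4A1, apart from prednisolone 30, varied little.

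**Figure D1:**
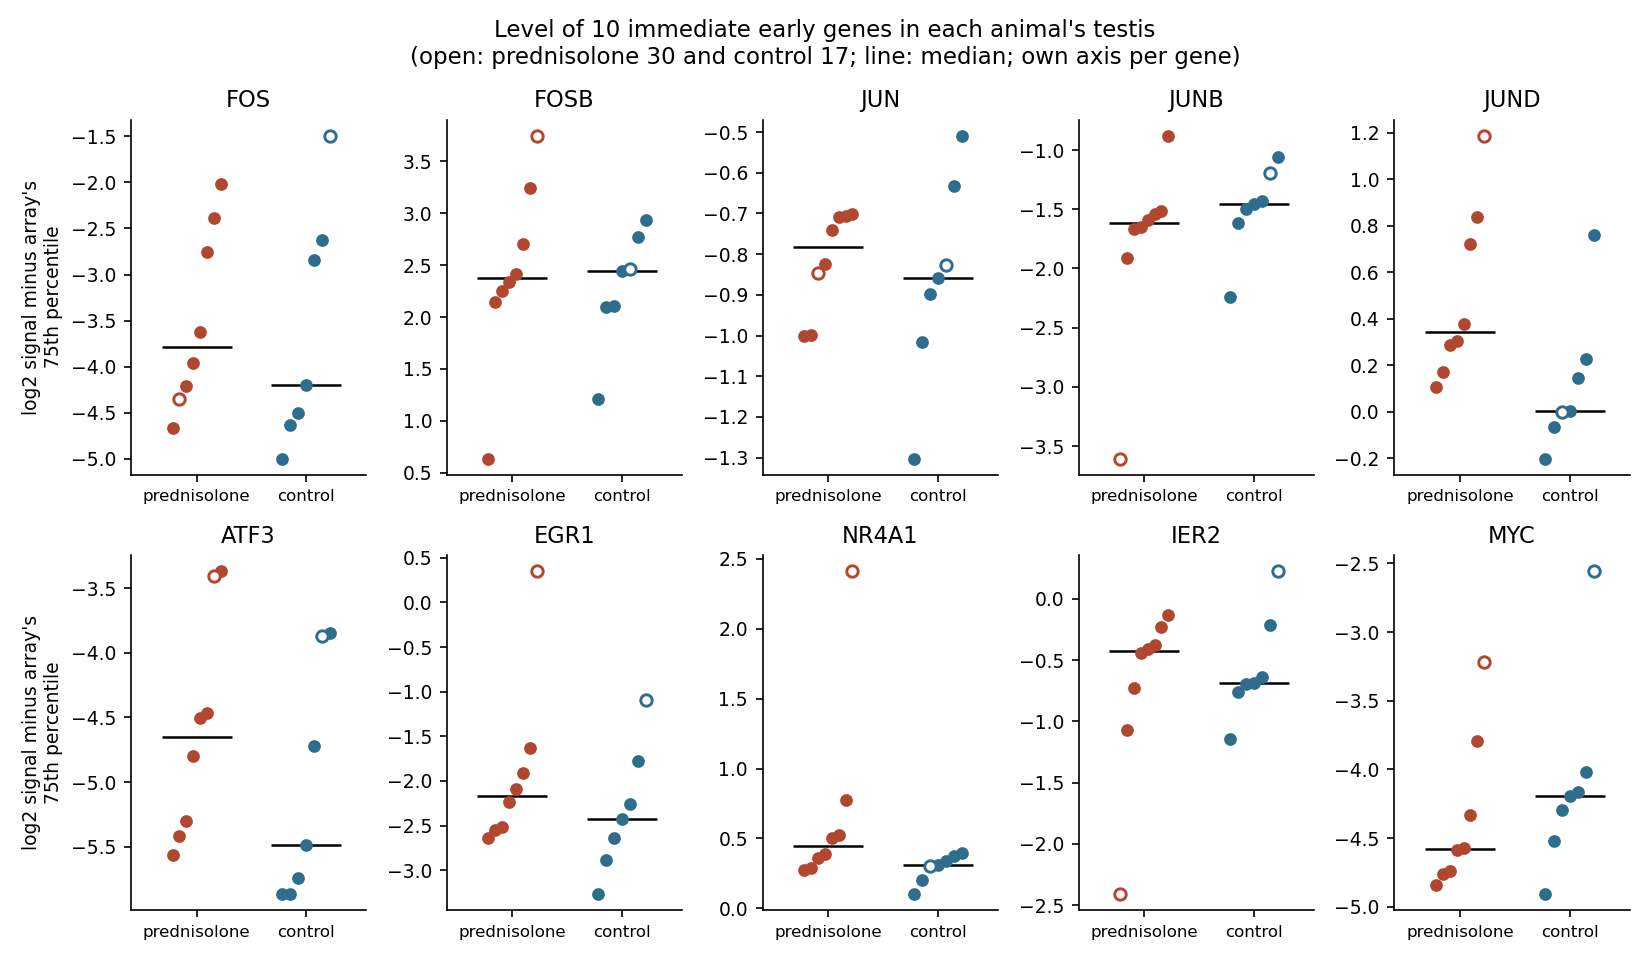
Level of each of the 10 genes in each animal, as the log2 processed signal minus the 75th percentile of the array (y axis, own scale per gene), with prednisolone left and control right. Open points are prednisolone 30 and control 17 and lines are medians. The groups overlap in every panel, FOS spans from -5.00 to -1.49, and prednisolone 30 stands apart for EGR1, NR4A1, JUNB and IER2.

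FOS, the inducible partner of JUN in AP-1, had a lowest level of -4.66, a median of -3.79 and a highest level of -2.02 in prednisolone testis. In control testis its lowest level was -5.00, its median -4.20 and its highest -1.49. Each group held animals near the bottom and near the top of the range: control 17, prednisolone 31, prednisolone 28 and control 24 were the highest, and control 23, prednisolone 32, control 21 and control 18 the lowest of the 14. Prednisolone exceeded control by 0.12 ± 0.54 (limma SE, n = 8 and 7), with a 95% interval from -1.01 to 1.25 and an adjusted p of 0.960 in limma. Without control 17 the difference was 0.47, and without both animals it was 0.59 (95% interval -0.41 to 1.60). Control 17 thus set much of this estimate, and no interval left out 0.

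FOSB, a second FOS family member that also pairs with JUN proteins, was read through the brighter of its 2 probes. That probe had a lowest level of 0.64, a median of 2.37 and a highest of 3.75 in prednisolone testis, against 1.21, 2.44 and 2.93 in control testis. The lowest value of all was that of prednisolone 25, and the next lowest that of control 21. The highest was that of prednisolone 30. The difference was 0.15 ± 0.37 (95% interval -0.64 to 0.93), and -0.01 without both animals. The other FOSB probe, named through its gene number, gave 0.49 ± 0.39 with all arrays and 0.15 without both. On this probe prednisolone 30 read 2.25 and every other animal at most 0.40. The 2 FOSB probes correlated at only 0.33 over 14 arrays, so the FOSB level depends on the probe read.

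JUN, a partner of FOS in AP-1, varied little. It lay between -1.0 and -0.70 with a median of -0.78 in prednisolone testis, and between -1.30 and -0.51 with a median of -0.86 in control testis. Both the highest and the lowest of the 15 values were controls, 24 and 18. The difference was 0.05 ± 0.13, and its 95% interval from -0.24 to 0.33 was the narrowest of the 10 genes.

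JUNB, a JUN relative that pairs with FOS and often opposes JUN, had a lowest level of -3.60, a median of -1.62 and a highest of -0.88 in prednisolone testis, against -2.24, -1.46 and -1.06 in control testis. The value of -3.60 belonged to prednisolone 30, and the next lowest prednisolone animal read -1.91. The difference of -0.29 ± 0.31 became -0.03 without prednisolone 30 and 0.02 without both animals.

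JUND, the JUN family member that is present in resting cells and whose loss leaves male mice sterile, had the smallest unadjusted p of the 10 genes. Its lowest level was 0.11, its median 0.34 and its highest 1.19 in prednisolone testis, against -0.20, 0.0039 and 0.76 in control testis. The value of 1.19 was that of prednisolone 30. In 7 of 8 prednisolone animals JUND lay above the control mean, but control 20 was higher than all prednisolone animals other than 27 and 30. The difference was 0.38 ± 0.19, with a 95% interval from -0.02 to 0.78, an unadjusted p of 0.0642 and an adjusted p of 0.885 in limma. Without both animals it was 0.26 (95% interval -0.09 to 0.61). JUND and NR4A1 were the 2 genes whose difference kept its sign under all alternatives tried, without passing the threshold in any.

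ATF3, a stress-induced member of the ATF family that can pair with JUN proteins, had a processed signal between 20.96 and 269 on the 14 arrays other than that of prednisolone 30. Its lowest level was -5.56, its median -4.65 and its highest -3.37 in prednisolone testis, against -5.86, -5.49 and -3.85 in control testis. Prednisolone 27, prednisolone 30, control 24 and control 17 formed the top of the range, so high animals came from both groups. The difference was 0.45 ± 0.42 (95% interval -0.43 to 1.34), and 0.48 without both animals. Duplicate spots of this probe differed by up to 2.28 on the arrays other than that of prednisolone 30, in control 23. In prednisolone 30 the 2 spots read -2.23 and -4.57, so single ATF3 values are imprecise.

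EGR1, a zinc finger factor that in pituitary cells drives the gene of the luteinizing hormone beta chain, had a lowest level of -2.64, a median of -2.16 and a highest of 0.35 in prednisolone testis. Its values in control testis were -3.27, -2.43 and -1.09. The value of 0.35 was again that of prednisolone 30, whose EGR1 probe was not well above background. The difference of 0.43 ± 0.41 was 0.11 ± 0.28 without that animal, and was 0.32 ± 0.22 without both.

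NR4A1, an orphan nuclear receptor that activates steroidogenic genes in Leydig cells, held the narrowest range among animals apart from prednisolone 30. It lay between 0.27 and 2.41 with a median of 0.45 in prednisolone testis, and between 0.10 and 0.40 with a median of 0.31 in control testis. The highest prednisolone value other than that of prednisolone 30 was 0.77, in prednisolone 27. The difference was 0.40 ± 0.26 with all arrays, and 0.16 ± 0.11 without both animals (95% interval -0.07 to 0.38).

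IER2, a nuclear protein induced with the other early response genes, lay between -2.41 and -0.13 with a median of -0.43 in prednisolone testis. In control testis it lay between -1.14 and 0.23 with a median of -0.69. Its lowest value was that of prednisolone 30 and its highest that of control 17. The difference was -0.16 ± 0.30 with all arrays and 0.21 ± 0.17 without both. It was 0.08 without prednisolone 30 alone and -0.03 without control 17 alone, so leaving out prednisolone 30 was enough to turn the sign.

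MYC, which pairs with MAX and drives growth and proliferation genes, had a lowest level of -4.84, a median of -4.58 and a highest of -3.22 in prednisolone testis. In control testis the values were -4.91, -4.19 and -2.56. Prednisolone 30 held the value of -3.22, its 2 spots reading -4.67 and -1.77, and the next prednisolone animal read -3.80. Control 17 held the value of -2.56, and the next control read -4.02. The difference of -0.26 ± 0.32 was -0.0049 without control 17 and -0.42 ± 0.28 without prednisolone 30.

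**Figure D2:**
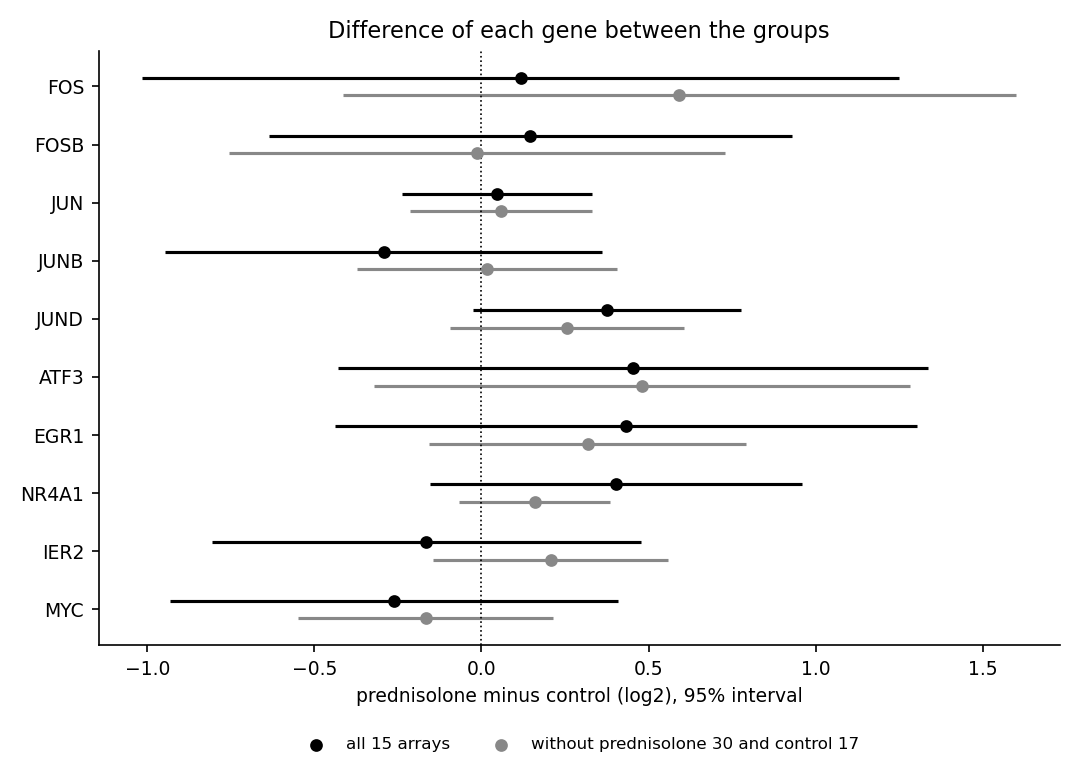
Difference of each gene, prednisolone minus control (x axis, log2), with 95% intervals from limma, for all 15 arrays (black) and without prednisolone 30 and control 17 (grey). Every interval includes 0. The FOS estimate is 0.12 in black and 0.59 in grey, and FOSB, JUNB and IER2 lie on opposite sides of 0.

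The values of prednisolone 30 were examined further because several genes stood apart there. In its scanner file the probes of FOSB and NR4A1 were well above background, and those of the other 8 genes were not. Its scanner value lay outside the range of the other 14 animals for 6 of the 10 genes: FOSB, JUNB, JUND, EGR1, IER2 and NR4A1. In the deposited table its value lay inside the range of the other animals for all 10 genes. NR4A1 shows the difference most plainly, with a scanner level of 2.41 where the other 14 animals ended at 0.77, and a deposited level of -0.07 where they lay between -0.21 and 0.50. EGR1 likewise had a scanner level of 0.35 and a deposited level of -2.89. Which of the 2 measurements belongs to the animal was not settled.

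FOS differed more between animals than almost all genes of the array. Over the 14 arrays without prednisolone 30 its standard deviation was 1.12, a value above that of 99.2% of tested genes, and the highest animal exceeded the lowest 11.3-fold. The standard deviation of a single spot of the FOS probe, taken from the 2 spots of each array, was 0.24. Each animal's level averages the 2 spots. Duplicate spots share the labelling and hybridisation of their array, so this value covers spot noise and not the other technical differences between arrays. The brighter FOSB probe had 0.67 between animals and 0.14 between spots, and the other FOSB probe 0.35 and 0.13, so the FOSB spread depended on the probe. Without control 17 the FOS standard deviation was 0.999, and the range was 7.88-fold.

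ATF3, MYC and EGR1 followed with standard deviations of 0.82, 0.60 and 0.55 between animals, at the 97.7, 92.5 and 90.1 percentiles of tested genes. Without control 17 those of MYC and EGR1 were 0.34 and 0.45, at the 68.8 and 87.6 percentiles, so the place of MYC rested on that animal. IER2, JUNB and JUND stood near the middle of all genes, at percentiles from 52.3 to 66.5. JUN (0.20) and NR4A1 (0.16) were low, at percentiles 13.2 and 4.67. A single NR4A1 spot had a spread of 0.15, but each level averages 2 spots, so these NR4A1 values are not on the same footing. These percentiles are not matched for brightness: the processed signal ran from 49.3 to 802 for FOS and from 1580 to 4754 for NR4A1 over the 14 arrays.

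**Figure D3:**
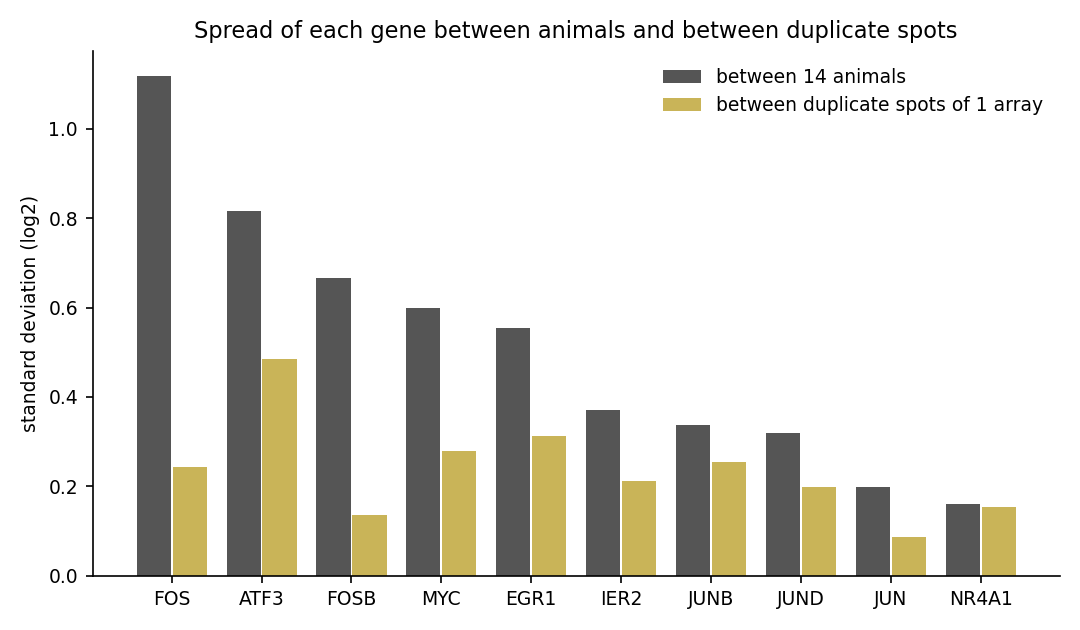
Standard deviation in log2 units (y axis) of each gene between the 14 animals other than prednisolone 30 (grey) and between the duplicate spots of 1 array, pooled over arrays (yellow). FOS shows 1.12 between animals and 0.24 between spots, while NR4A1 shows 0.16 and 0.15. Yellow gives the spread of a single spot, while each animal's level averages 2 spots. FOSB is its brighter probe.

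The animals at the extremes recurred from gene to gene. Among the 14, control 17 was the highest for FOS, EGR1, IER2 and MYC, and prednisolone 27 was the highest for FOSB, JUND, ATF3 and NR4A1. Control 18 was the lowest for JUN, JUND, EGR1, ATF3 and IER2. The array of prednisolone 27 was the only one on its slide and on its scan day, so these cannot be told apart from the animal. That array was also the brightest, with a 75th percentile of 2780. Over the 14 arrays the level correlated with the log2 of that percentile at 0.25 for FOS, 0.41 for ATF3 and 0.37 for NR4A1, and its part in these levels was not tested. The mean over the 10 genes, each centred on its own mean, ran from -0.25 to 0.48 in prednisolone testis and from -0.48 to 0.69 in control testis, so the groups overlapped here too.

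Correlation between the genes was computed over the 14 animals for all 45 pairs, with two-sided permutation p-values adjusted over the 45. The median Pearson r was 0.31 and 42 pairs were positive. No such count over pairs drawn from all tested genes is given here, so it only describes these 45 pairs. With prednisolone 30 added, 30 of the 45 were positive, the lowest r was -0.79, and that of EGR1 with IER2 was -0.37 in place of 0.71. The arrays share a scale, which every pair on an array has in common. In 3 pairs the adjusted p was under 0.05: EGR1 with ATF3, FOS with EGR1, and FOS with MYC.

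EGR1 and ATF3 moved together from animal to animal. Their Pearson r was 0.86 (n = 14, permutation p = 0.00008, adjusted p = 0.0036) and their Spearman rho 0.89 (permutation p = 0.0001, adjusted p = 0.0045). Leaving out control 17 and control 18, which lay farthest from the median of EGR1, r was 0.87 with an adjusted permutation p of 0.00855. It was 0.81 within the 7 prednisolone animals and 0.91 within the 7 controls. Within the 8 animals of scan day 1, the one scan day with over 2 animals, it was 0.86. With the deposited values r was 0.89 over the 11 animals that had both genes. With prednisolone 30 added to the 14 scanner arrays r was 0.82. This pair kept its correlation in all of these subsets.

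FOS and EGR1 had a Pearson r of 0.79 (n = 14, permutation p = 0.00054, adjusted p = 0.0122) and a Spearman rho of 0.76 (permutation p = 0.00253, adjusted p = 0.0569). Within the 7 prednisolone animals r was 0.77, within the 7 controls 0.81 and within scan day 1 0.76. Without control 17 and prednisolone 31, the animals farthest from the FOS median, r was 0.71 with an adjusted permutation p of 0.144. Without control 17 and prednisolone 30 it was 0.70 with an adjusted permutation p of 0.175, and with prednisolone 30 included it was 0.32. The size of r was thus similar within the groups, but passing the threshold over 45 pairs rested on control 17.

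FOS and MYC had a Pearson r of 0.69 (n = 14, permutation p = 0.00265, adjusted p = 0.0398) and a Spearman rho of 0.54 (permutation p = 0.0479, adjusted p = 0.359). Without control 17 and prednisolone 31 r was 0.38 (adjusted permutation p = 0.581), so this relation rests on those 2 animals. Within the 7 prednisolone animals r was 0.75, within the 7 controls 0.82, and within the 8 animals of scan day 1 0.81. Each of these sets holds control 17, prednisolone 31 or both. Neither group alone had a pair past the threshold over 45 pairs.

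**Figure D4:**
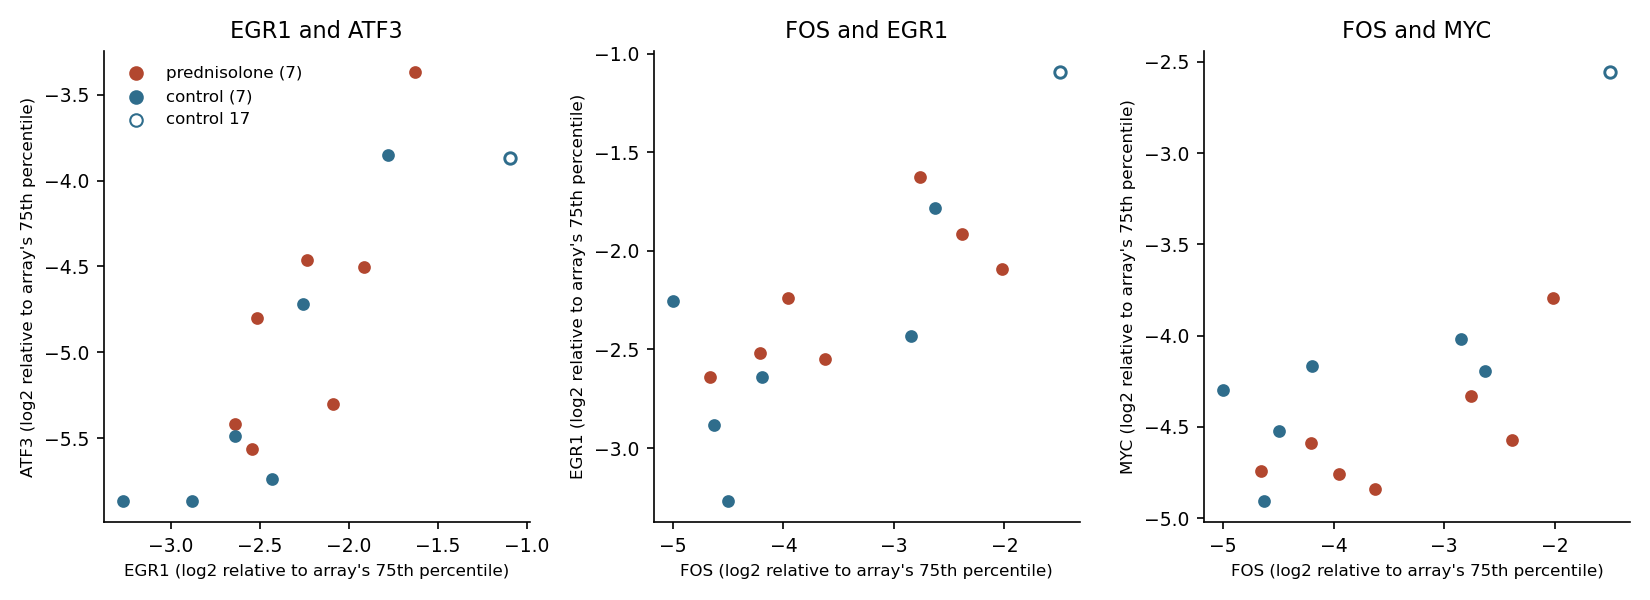
Levels of 3 gene pairs in 14 animals (both axes log2 relative to the array's 75th percentile), prednisolone in red and control in blue, with control 17 open. EGR1 and ATF3 rise together in both groups (r = 0.86), and control 17 lies at the upper right of the FOS and MYC panel, apart from the others.

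The AP-1 partners themselves showed weaker relations. FOS correlated with JUNB at 0.65, with FOSB at 0.42, with JUND at 0.36 and with JUN at 0.31, and none of these passed the threshold. Without control 17 and prednisolone 30 these were 0.61, 0.44, 0.59 and 0.35 in that order. FOS with MYC was then 0.55, so the contrast with MYC did not hold for JUNB and JUND. FOSB and JUN had an r of -0.19, the lowest of the 45 pairs. NR4A1 followed ATF3 at 0.47 and IER2 at 0.42, and FOSB at 0.0041. IER2 with EGR1 (0.71, adjusted permutation p = 0.0567) and EGR1 with MYC (0.68, adjusted permutation p = 0.0760) came next after the 3 pairs, and both were lower without control 17 and control 18, at 0.33 and 0.42.

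**Figure D5:**
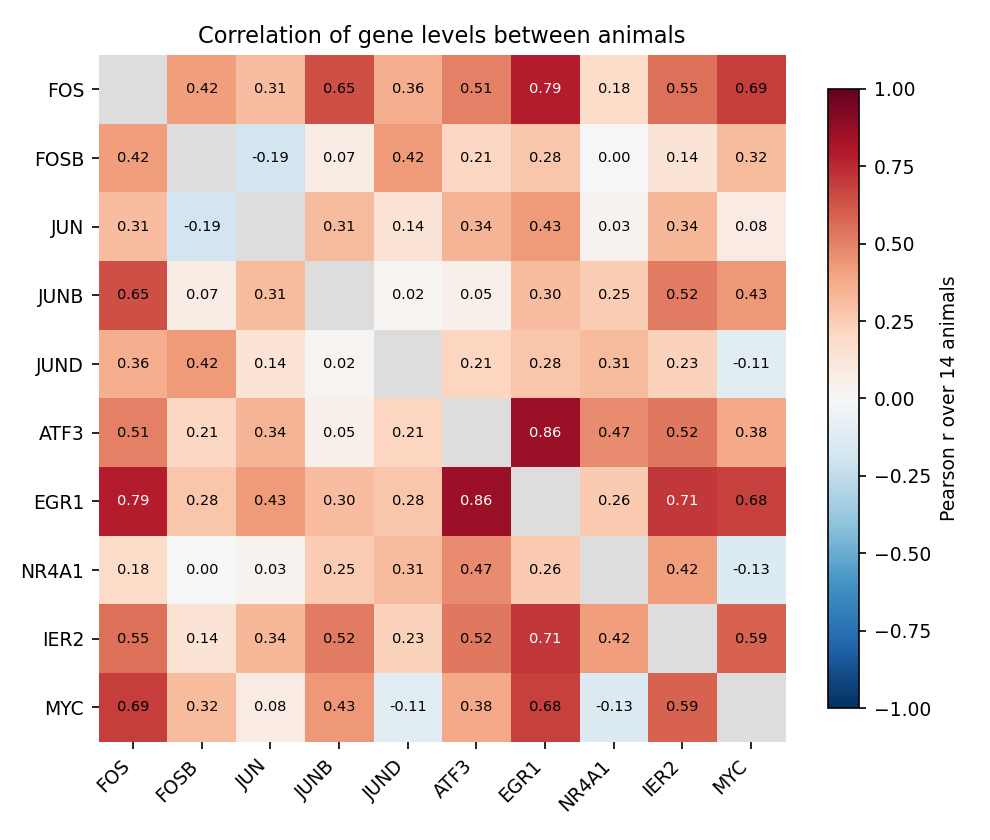
Pearson r between the levels of each pair of the 10 genes over 14 animals, from -1 (blue) to 1 (red). The cells of FOS, EGR1, ATF3, IER2 and MYC are mostly red, with EGR1 and ATF3 at 0.86, while FOSB, JUN and NR4A1 are pale.

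Markers of other cells moved with FOS. Over 14 animals the mean of 6 macrophage markers correlated with FOS at 0.75 (permutation p = 0.00095, adjusted over 10 marker lists 0.0095), and that of 6 lymphocyte markers at 0.74 (permutation p = 0.00234, adjusted p = 0.0117). The mean of 6 endothelial markers reached 0.58 (permutation p = 0.01995, adjusted p = 0.0499). The mean of 6 spermatocyte markers ran opposite, at -0.63 (permutation p = 0.0156, adjusted p = 0.0499). The other 6 lists did not pass the threshold. By Spearman correlation the macrophage, lymphocyte and spermatocyte lists passed, and the endothelial list had a rho of 0.42 (adjusted permutation p = 0.194).

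These relations were weaker without the extreme animals. Without the 2 animals farthest from the median, r was 0.59 for macrophage, 0.68 for lymphocyte, 0.28 for endothelial and -0.47 for spermatocyte markers. Without control 17 it was 0.66, 0.65, 0.34 and -0.52 in that order, and no list passed the threshold, the smallest adjusted permutation p being 0.0892. Within the 8 animals of scan day 1, which include control 17, the values were 0.83, 0.86, 0.78 and -0.94. In the 7 animals of that day without control 17 they were 0.63, 0.72, 0.49 and -0.88.

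The relations differed within the marker lists. CD163 and CSF1R, both of macrophages, correlated with FOS at 0.75 and 0.71, while AIF1 and CD14 of the same list had -0.60 and -0.30. VWF was the only endothelial marker with a negative r (-0.34). SYCP3 was the only spermatocyte marker with a positive r (0.32). All 6 lymphocyte markers were positive, from 0.14 for CD79A to 0.78 for CD8A. EGR1 and ATF3 correlated with the macrophage mean at 0.83 and 0.62, and with the lymphocyte mean at 0.76 and 0.75. With the spermatocyte mean they correlated at -0.72 and -0.77, and with the Sertoli mean at 0.59 and 0.68. In bulk tissue, more cells of a type and more RNA per cell cannot be told apart.

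The marker means overlapped between the groups. The macrophage mean ran from -0.32 to 0.14 in prednisolone testis and from -0.21 to 0.58 in control testis, and the lymphocyte mean from -0.53 to 0.78 in prednisolone testis and from -0.30 to 0.61 in control testis. The spermatocyte mean ran from -0.99 to 0.12 in prednisolone testis and from -0.40 to 0.38 in control testis. Prednisolone 30, with the dim array, held the macrophage -0.32, the lymphocyte 0.78 and the spermatocyte -0.99. Without it these ends of the prednisolone ranges were -0.24, 0.52 and -0.37. Control 17 was the highest control for macrophage (0.58), lymphocyte (0.61), endothelial (0.77), peritubular (1.47) and Sertoli (0.41) markers and the lowest for spermatid (-0.79), spermatocyte (-0.40) and granulocyte and mast cell (-0.89) markers. All 6 of the macrophage and all 6 of the lymphocyte markers with a probe passed the filter. Their part in the levels of FOS, EGR1 and ATF3 was not tested.

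The genes around these factors were read through 5 lists, and 0 of their 93 tested genes passed the threshold. Of 11 AP-1 partners and relatives, 7 were higher and 4 lower in prednisolone testis, with a median difference of 0.04. FOSL2 (0.72 ± 0.39) and ATF7 (0.46 ± 0.35) were among the 3 with the smallest unadjusted p-values. FOSL2, a FOS family member, was 0.30 without both animals, and ATF7 0.07. Prednisolone 30 read -0.70 for FOSL2 and 1.82 for ATF7, while the mean of the other prednisolone animals was -3.26 and -0.92.

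Of 33 other immediate early genes, 10 were higher and 23 lower, with a median of -0.11. Without both animals 17 were higher and the median was 0.01, so the direction of this count rested on those animals. In this list 2 genes had an unadjusted p under 0.05, beside 2.51% of all genes. PPP1R15A, a phosphatase subunit that lets protein synthesis resume after stress, averaged -4.00 ± 0.34 in prednisolone testis and -4.73 ± 0.48 in control testis (SD, n = 8 and 7). All 8 prednisolone animals lay above its control mean, with a difference of 0.74 ± 0.21 and an adjusted p of 0.885 in limma. FOSL2 and ATF7 also had all 8 above. These genes were picked by their p-values, so such a count can follow from that choice. Without both animals the PPP1R15A difference was 0.54. ZFP36L2, which speeds decay of AU-rich messages, averaged -1.38 ± 0.96 in prednisolone testis and -0.52 ± 0.43 in control testis. Its difference of -0.86 ± 0.37 became -0.45 without both animals. CCN2, a matrix-associated protein, had a difference of -0.58 ± 0.29.

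Of 24 upstream kinases and transcription factors, 12 were higher and 12 lower. The smallest p-values were those of CREBBP, the coactivator of CREB (-0.33 ± 0.17), CREB1 itself (0.33 ± 0.20) and MAPK3, the kinase ERK1 (0.30 ± 0.20). Without prednisolone 30 these were -0.20, 0.17 and 0.35. Of 12 feedback inhibitors, 5 were higher and 7 lower. Among these DUSP1, the MAP kinase phosphatase that glucocorticoids are known to induce, had a difference of -0.35 ± 0.30. Prednisolone 30 read -1.69 for DUSP1, and without it the difference was -0.07. DUSP2 (-0.23 ± 0.14) and DUSP8 (0.47 ± 0.45), phosphatases of the same family, were the others named, and without prednisolone 30 they had -0.14 and 0.08.

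Of 13 genes of the MYC network, 9 were higher and 4 lower. MYCN, a MYC relative, had a difference of 0.35 ± 0.26, MYCBP2, a ubiquitin ligase, -0.24 ± 0.26, and MGA, a MAX partner, 0.26 ± 0.29. Without both animals these were 0.15, 0.04 and -0.02. All 14 genes named from the 5 lists had a difference closer to 0 without prednisolone 30 and control 17 than with them. They were picked by their p-values with all arrays, so a shift toward 0 can follow from that choice alone.

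The genes most like the mean of the 10 were sought over the 13 animals without prednisolone 30 and control 17, by Spearman correlation among all tested genes. MAN2B1, a lysosomal mannosidase, came first at 0.92. MYT1, a zinc finger factor known from neural cells, followed at 0.89. C7, a complement component, reached 0.87, and PRKCH, a protein kinase C, and TIMP2, an inhibitor of metalloproteinases, 0.86 each. Over these animals MAN2B1 ran from 0.92 to 1.56, MYT1 from -7.57 to -5.52 and TIMP2 from 6.51 to 7.27. With 13 animals and this many genes, these values are a description of the ranking.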

How the data were processed

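Spot brightness is given as intensity in the scanner files the authors deposited, written by Feature Extraction 9.5.1.1, per the file headers, with flags for spots above background and outliers. The series' design text states scanning at 2 sensitivities, and that background subtraction and multiplicative detrending gave the processed signal. The authors' deposited table also holds intensity values, with a scaling that is not stated in the sources used here, and the submitters' processing notes name R 2.11.1. Among the 14 animals other than prednisolone 30 its values were blank in 3 for ATF3, 2 for FOS and 1 for MYC.

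Of 42990 spots other than controls, those marked as outliers were dropped and a probe's spots were averaged, giving 21475 probes, 16640 of which had a gene symbol. A probe was tested when well above background on at least 7 arrays, counted over both groups together. A gene was read through its brightest tested probe, 13014 genes in all. Names came from the files and a gene table of assembly ARS-UCD2.0. No coordinates are printed because no source used here states the build of the array design. The comparison used limma 3.58.1 under R 4.3.3, two-sided, with a threshold of 0.05 after Benjamini-Hochberg adjustment over all tested probes. Correlations used 100000 permutations in Python 3.11.15 with NumPy 2.4.6, and figures matplotlib 3.10.9.

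The members and lists were chosen with earlier results of these data known. Named from each of the 5 lists were the 3 genes with the smallest unadjusted p. Named beside the 10 genes were also the 6 others most like their mean by Spearman correlation. The values of 2 genes that this rule names are not reported here. Slide and scan day came from the headers, and both groups occurred on slide 1, slide 4 and scan day 1. The labels give separate animals, and the number of arrays limits the precision. Tested on simulated data of 13011 genes for this comparison, limma recovered 5.6% of the genes shifted by 0.5 (log2), 51.9% of those shifted by 1, 90.6% by 2 and 98.3% by 3. False ones made up 1.04% of its calls. The simulation used residuals of the real arrays with random signs per gene and array, which removes correlation between genes, and shifted 200 genes. Its rates are averages over genes drawn at random. They were not computed for the 10 genes, of which FOS and ATF3 spread more than most. Alternatives covered the arrays used, scaling, background correction, the deposited table, the filter, batch, array weights, outlier spots and the probe rule.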

Additional observations from a re-analysis of the deposited data

Results flagged for a closer look

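The highest or lowest animal of a group was set against its nearest neighbour for 11 probes in each of the 2 groups. Of these 22 sets of values 6 stood apart by more than Dixon's 95% limit, where chance gives about 1 in 20, or 1.1. In 5 of the 6 the animal was prednisolone 30, whose array was dim and whose scanner file did not match its deposited column. It stood at 2.25 for the FOSB probe named through its gene number (nearest prednisolone animal 0.40), at -3.60 for JUNB (nearest -1.91), at 0.35 for EGR1 (nearest -1.63), at -2.41 for IER2 (nearest -1.07) and at 2.41 for NR4A1 (nearest 0.77). The remaining one was control 17, at -2.56 for MYC, where the nearest control read -4.02.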

How the results depend on the processing

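No gene of the 10, and none of the 93 genes of the 5 lists, passed the adjusted threshold under any alternative. Over all genes, 327 had an unadjusted p under 0.05; this was 537 without prednisolone 30, 649 without both, 717 with the deposited table, 836 with array weights, 120 within scan day 1, 1072 with scan day as a block without both, 1059 within scan day 1 without both, 775 in the deposited table without control 17, 621 in it without prednisolone 30, 143 with probes well above background on all arrays, 72 within slide 4 and 195 without control 22. The higher share of these calls, 195 of 327, was 71 of 72 within slide 4 and 158 of 381 with normexp.

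Differences with the opposite sign, prednisolone minus control, were as follows, and the cause was not tested. FOS was -0.48 with quantile normalization, -0.10 with normexp, -0.29 in the deposited table, -0.25 with slide as a block, -0.14 within scan day 1 or blocked on scan day, and -1.09 within slide 1. FOSB was -0.012 without both, -0.047 in the deposited table, -0.19 with slide as a block, -0.0064 within scan day 1 or blocked on scan day, -1.06 within slide 1 and -0.027 with array weights. IER2 was 0.21 without both, 0.045 in the deposited table and 0.11 with array weights. JUNB was 0.016 without both, JUN -0.016 with median scaling, EGR1 -0.20 within slide 1 and MYC 0.27 within slide 4. ATF3 was -0.0048 within scan day 1 or blocked on scan day.

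Among alternatives chosen after seeing the data, scan day as a block without both, and scan day 1 alone without both, gave FOSB -0.23, JUNB 0.43 and IER2 0.50. The deposited table without prednisolone 30 gave FOS -0.22, FOSB -0.074 and IER2 0.059, and without control 17 IER2 0.19. Also added then were the other FOSB probe, the deposited table's 15 columns for correlations, correlations within scan day 1, and leaving out each animal from them.

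Leaving out each animal in turn gave ranges of -0.11 to 0.47 for FOS, -0.041 to 0.40 for FOSB, -0.026 to 0.11 for JUN, -0.42 to -0.03 for JUNB, 0.28 to 0.48 for JUND, 0.28 to 0.66 for ATF3, 0.11 to 0.64 for EGR1, 0.16 to 0.46 for NR4A1, -0.26 to 0.076 for IER2 and -0.42 to -0.0049 for MYC. The median difference of 0.13 over the 10 genes was 0.61 within slide 4, which held 2 prednisolone animals and 1 control.

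The median r of 0.31 was 0.25 with all 15 arrays, 0.37 in controls alone and 0.43 with values centred on the slide mean, and ranged from 0.26 to 0.36 when each animal was left out. The 3 pairs past the threshold became 4 with all 15 deposited columns (EGR1 with IER2 added), and 2 with quantile normalization and 2 with 14 deposited columns (EGR1 with ATF3 and FOS with EGR1 in both). Blank deposited values left 11 animals for EGR1 with ATF3 and 12 for FOS with EGR1 in the 14 columns. In the 15 columns they left 12 and 13. With all 15 arrays they were 2, EGR1 with ATF3 and JUNB with IER2 (r 0.85, adjusted permutation p = 0.0461). They became 1 without both animals, 1 by Spearman correlation and 1 without the 2 animals farthest from the median. They became 0 in prednisolone animals alone, in controls alone, within scan day 1, and with values centred on the scan day or slide mean, settings with 7 to 12 animals. No paired analysis was possible because the groups share no animal numbers.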

Other observations

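Immediate early genes outside the 10 were also set against FOS over the 14 animals, as a description. Of the 33 measured, 23 correlated positively with FOS and the median r was 0.41, while 5680 of all 13013 other genes were positive and their median was -0.09. CITED2, a coactivator-binding protein, reached 0.73, RHOB, a small GTPase, 0.71 and KLF6, a zinc finger factor, 0.71. CCN1, a matrix protein, had 0.67, and ZFP36, which speeds decay of AU-rich messages, 0.66. NFIL3, a leucine zipper repressor, ran opposite at -0.45. Without control 17 the median r of the 33 was 0.19, so much of this list's relation with FOS came from that animal. The values named here were chosen after they were seen, and all genes of an array share its scale. AP-1 partners outside the 10 had a median r of -0.19 with FOS, and 3 of 11 were positive, among them MAF (0.69) and JDP2 (0.58).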
